A study of Mus musculus with 10 samples.

Results

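The untreated (mock) day 7 cultures of 2 brown preadipocyte lines were compared, 1 RNA-seq library of each line, 2 of the 10 samples in the series. They were chosen by their labels as the mock RNA libraries. The LSL-K4M line carries the genotype LSL-K4M;CreER, in which a lox-stop-lox cassette holds back a histone H3.3 with lysine 4 changed to methionine. The Mll3/4SET line carries the genotype Mll3f/f;Mll4SETf/f;CreER, in which lox sites flank a part of Mll3 and the catalytic SET domain of Mll4. Both lines carry CreER, a recombinase that acts once 4-hydroxytamoxifen (4OHT) is given, and mock cultures received none. Both were interscapular brown fat precursors of newborn mice immortalised with SV40 large T antigen, a viral protein that keeps primary cells dividing. After 4 days in growth medium, adipogenesis was started with dexamethasone (2 μg/ml), indomethacin (0.125 mM), IBMX (0.5 mM), insulin (0.02 μM) and the thyroid hormone T3 (1 nM). Medium with insulin and T3 was renewed on days 2, 4 and 6, and RNA was taken on day 7, a stage named mature adipocytes. The sources used here do not say how many animals or clones each line came from, nor the strain background of the mice. The mock libraries are the reference against which each induced change is read, so the question here is how far the references themselves differ.

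Brown adipocytes arise from mesenchymal precursors when PPARγ and C/EBPα switch on the genes of lipid storage and, on stimulation, of heat production. Differentiated fat cells make fatty acids from glucose through ATP-citrate lyase, acetyl-CoA carboxylase and fatty acid synthase, a route driven by the transcription factors SREBP1c and ChREBP. Precursors normally leave the cell cycle as they differentiate, and the surrounding matrix is remodelled at the same time.

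Values are RPKM, a read count divided by the length of the transcript and the size of the library, which the authors computed for each library by itself in a separate table for each line. Differences are log2((Mll3/4SET RPKM + 1)/(LSL-K4M RPKM + 1)), so a value above 0 is higher in the Mll3/4SET line. With 1 library a side there is no replicate and no test, and a gene is called higher or lower from a 2-fold difference on that scale. Fold values beside RPKM are plain ratios of RPKM. The range in brackets is a 95% interval from an exact conditional binomial calculation on the reads, and it allows for counting error alone. Differences of line, culture and library preparation cannot be told apart. The libraries held 15211681 (LSL-K4M) and 15422238 (Mll3/4SET) reads over 1 transcript per gene name, a depth that makes counting error small for all but low genes.

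Both libraries carried the RNA of fat cells. Fabp4, the fatty acid binding protein of adipocytes, stood at 4099 RPKM in LSL-K4M and 5119 RPKM in Mll3/4SET. Plin1, which coats lipid droplets, stood at 269 and 293 RPKM, and the regulator Cebpa at 159 and 158 RPKM. Pparg was at 134 RPKM in LSL-K4M and 100 RPKM in Mll3/4SET. Several markers of brown identity were low in both: Ucp1, the uncoupling protein of brown fat, had 3.58 and 1.45 RPKM, Cidea 3.86 and 0.695 RPKM, and Prdm16 2.74 and 1.73 RPKM. Of the other markers of that list, Cox8b stood at 15.3 and 10.8 RPKM, Ppargc1a at 6.33 and 5.02 RPKM, Elovl3 at 3.48 and 2.06 RPKM, and Dio2 at 0.271 and 0.209 RPKM. The 7 brown markers summed to 35.6 RPKM in LSL-K4M and 21.9 RPKM in Mll3/4SET, against 5678 and 6364 RPKM for the 8 adipocyte markers.

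Markers of other cell types were absent or low, except those that stromal cells share. Of the 6 skeletal muscle markers, Myod1, Myog, Myf5 and Pax7 had 0 reads in both libraries, which allows up to 3 reads, and the summed level was 3.36 RPKM in LSL-K4M and 1.47 RPKM in Mll3/4SET. The 7 macrophage and leukocyte markers summed to 5.57 and 4.66 RPKM, mostly from Mpeg1, with Ptprc and Cd3e at 0 reads in both. The 5 endothelial markers summed to 1.77 and 3.17 RPKM with Cdh5 at 0 reads. The 4 epithelial markers reached 0.0435 RPKM in LSL-K4M and 0 in Mll3/4SET. The 6 preadipocyte markers summed to 331 RPKM in LSL-K4M and 370 RPKM in Mll3/4SET. The 4 smooth muscle and pericyte markers summed to 231 and 126 RPKM, almost all of it Acta2.

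The genes named in the line designs had similar levels. Mll2 (current symbol Kmt2d), the gene whose protein the study calls MLL4, stood at 9.31 RPKM in LSL-K4M mock, 13.6 in Mll3/4SET mock, 10.2 in LSL-K4M 4OHT and 12.2 in Mll3/4SET 4OHT. Mll3 (Kmt2c) stood at 5.17, 7.48, 4.09 and 5.46 RPKM in the same order. These counts cover the whole transcript, so they check neither deletion nor label. None of the 13 measured genes of H3K4 methyltransferase complexes was 2-fold different between the mock libraries. The H3.3 genes H3f3a (19 and 20.7 RPKM) and H3f3b (166 and 212 RPKM) were close as well.

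A gene was measured if its higher mock library reached 1 RPKM. Of 11648 such autosomal genes, 584 (5.01%) differed by 2-fold or more. In the Mll3/4SET library 208 of them (1.79% of genes) were higher and 376 (3.23%) lower, so 64.4% of the calls were lower. The counting interval excluded equality for 544 of the 584. At 3-fold, 31 genes were higher and 95 lower. The median difference over all genes was -0.00 with an SD of 0.48, 83.7% of genes lay within 1.5-fold, and Pearson's r of log2(RPKM + 1) across genes was 0.951. Most genes were thus alike in both libraries. The shares of all genes called are the background for the count of each gene list below.

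**Figure D1:**
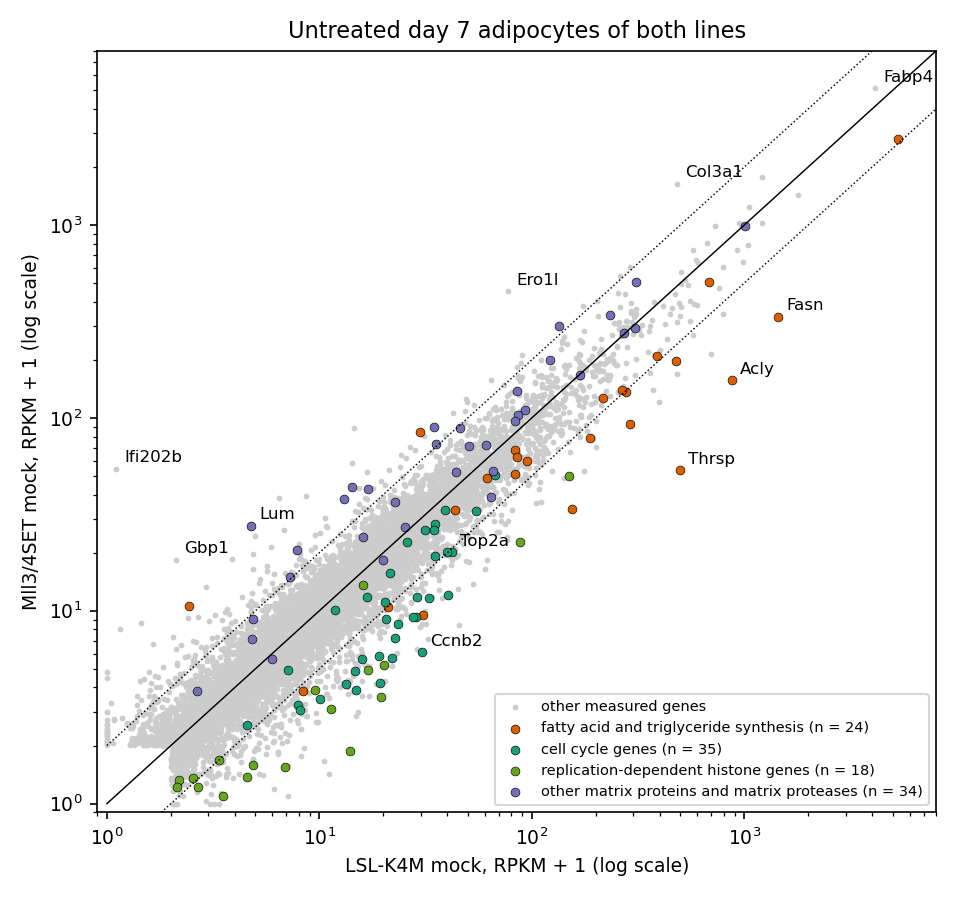
RPKM + 1 of every measured autosomal gene in the LSL-K4M mock library (x, log scale) and the Mll3/4SET mock library (y, log scale), with 4 gene lists coloured, the solid line at equality and dotted lines at 2-fold. Fasn, Acly, Thrsp and most cell cycle and histone genes lie below the lower dotted line or near it, while Ifi202b, Gbp1, Lum, Ero1l and Col3a1 lie above the upper one.

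The enzymes that make fatty acids were the most abundant of the genes lower in the Mll3/4SET library. In the list of fatty acid and triglyceride synthesis, 11 of 24 measured genes were 2-fold lower and 2 higher, with a median difference of -0.92 where all genes had -0.00. Fasn, fatty acid synthase, had 1440 RPKM in LSL-K4M and 333 RPKM in Mll3/4SET, 4.32-fold lower (4.28 to 4.35). Acly, which makes cytosolic acetyl-CoA from citrate, had 871 and 155 RPKM, 5.61-fold lower (5.51 to 5.71). Acss2, which makes it from acetate, had 154 and 32.9 RPKM.

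Thrsp, a small protein that accompanies lipogenesis, differed most of the list, with 495 RPKM in LSL-K4M and 52.7 RPKM in Mll3/4SET, 9.39-fold lower (8.85 to 9.97). The mitochondrial citrate carrier Slc25a1 (288 and 91.8 RPKM), pyruvate carboxylase Pcx (476 and 196), the acetyl-CoA carboxylases Acaca (187 and 78.0) and Acacb (29.6 and 8.48), malic enzyme Me1 (275 and 135) and Mogat1 (7.34 and 2.83) were lower too. The stearoyl-CoA desaturase Scd1, the most abundant member, had 5306 and 2801 RPKM and stayed inside 2-fold, as did the desaturases Fads1 and Fads2. The list as a whole took 8.09% of the reads in LSL-K4M and 3.59% in Mll3/4SET. Also called lower were 3 enzymes of the pentose phosphate pathway, a supplier of NADPH for this route: Tkt (369 and 139 RPKM), Taldo1 (193 and 78.0) and Pgd (167 and 78.7). They were 3 of 8 measured genes of a list drawn up after values were seen.

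The 2 list members that were higher in Mll3/4SET belong to the glycerol side of triglyceride synthesis. Pck1, the cytosolic enzyme that feeds glycerol synthesis in fat, had 1.43 RPKM in LSL-K4M and 9.58 RPKM in Mll3/4SET. Agpat9 (glycerol-3-phosphate acyltransferase 3) had 28.8 and 83.6 RPKM. Both lay on the opposite side of the lipogenic enzymes.

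Among 21 measured adipogenic transcription factors, 2 were called, both of them lower and both known regulators of lipogenic enzymes. Mlxipl, which encodes ChREBP, had 59.0 RPKM in LSL-K4M and 15.5 RPKM in Mll3/4SET, 3.80-fold lower (3.57 to 4.05). Nr1h3, which encodes the oxysterol receptor LXRα, had 25.6 and 11.4 RPKM. Srebf1 had 306 and 166 RPKM, a difference of -0.87 that missed 2-fold. Cebpb (101 and 98.6 RPKM) and Klf15 (9.07 and 8.09) were nearly equal.

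Of 27 measured adipocyte markers 5 were lower and none higher, with a median of -0.36. The hormone adiponectin, Adipoq, had 483 RPKM in LSL-K4M and 167 RPKM in Mll3/4SET, 2.89-fold lower (2.79 to 2.99). The others were Retn (141 and 47.7 RPKM), the insulin-responsive glucose transporter Slc2a4 (76.1 and 28.1), Gpd1 (796 and 346) and carbonic anhydrase Car3 (696 and 214). The other 22 stayed inside 2-fold, among them the lipase Lpl (942 and 1022 RPKM), the fatty acid transporter Cd36 (211 and 254), the lipid droplet proteins Plin4 (79.8 and 112) and Cidec (98.5 and 71.9), and the lipase Lipe (225 and 200). In bulk RNA a smaller number of fat cells and less of an RNA in each of them cannot be told apart.

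Cholesterol synthesis genes were also lower in Mll3/4SET. Of 20 measured genes 11 were 2-fold lower and none higher, the median was -1.02, and all 20 lay below 0. Fdps, which makes farnesyl pyrophosphate, had 32.7 RPKM in LSL-K4M and 10.8 RPKM in Mll3/4SET, 3.02-fold lower (2.65 to 3.46). Pmvk, early in the pathway, had 49.6 and 16.9 RPKM, and Dhcr7, which makes cholesterol in the final step, had 22.2 and 7.42 RPKM. Insig1, a sterol sensor of the endoplasmic reticulum, had 103 and 49.5 RPKM. The pathway's regulator Srebf2 (31.2 and 24.1 RPKM) stayed inside 2-fold.

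Genes of dividing cells were the other large group. Of 35 cell cycle genes, all measured, 20 were 2-fold lower in Mll3/4SET and none higher, with a median of -1.28 and all 35 below 0. Ccnb2, a mitotic cyclin, had 29.4 RPKM in LSL-K4M and 5.10 RPKM in Mll3/4SET, 5.77-fold lower (4.91 to 6.82). Mki67, the standard marker of proliferation, had 39.2 and 11.1 RPKM. The centromeric histone Cenpa had 18.4 and 3.23 RPKM, the mitotic kinase Plk1 13.9 and 2.90 RPKM, and Birc5, of the chromosomal passenger complex, 20.9 and 4.71 RPKM.

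Of other members of that list, Top2a, which untangles sister chromatids, had 41.0 and 19.2 RPKM, and Cdk1 had 19.6 and 8.06 RPKM. The 6 subunits of the MCM helicase lay between -0.46 (Mcm5, 20.6 and 14.7 RPKM) and -0.18 (Mcm7, 24.8 and 21.7 RPKM). Pcna, the replication clamp, had 33.7 and 25.2 RPKM. Both libraries thus held mitotic transcripts on day 7, with the higher levels in LSL-K4M. No gene of 25 measured p53 targets and cell cycle inhibitors was called either way.

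The replication-dependent histone genes, which are transcribed in S phase, showed the lowest median of all the lists. Of 18 measured members 13 were 2-fold lower and none higher, with a median of -1.65. The linker histone genes Hist1h1c (148 and 48.8 RPKM), Hist1h1d (18.6 and 2.57) and Hist1h1b (12.9 and 0.869) and the core histone gene Hist1h2bc (87.0 and 21.6) were lower. Counting every measured gene of the histone clusters gave 36 lower of 45, with a median of -1.67. These values are uncertain. The genes are near-identical copies whose reads the authors' counting could split. Most of their transcripts also end in a stem-loop and not in a poly(A) tail, and mRNA was selected with magnetic beads. What that selection contributes was not tested.

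For the 3 lists lowest in Mll3/4SET, promoters are shown of the called member with the highest LSL-K4M level that had a single promoter window. The sequences are the 250 bases before the annotated start, from RefSeq on build GRCm38.p6, written on the gene's strand. Capitals mark the letters CCAAT on either strand, the box bound by the factor NF-Y, which is known from the promoters of mitotic, histone and sterol genes. Top2a lies at chr11:99024190-99024439 on the minus strand, Hist1h1c at chr13:23738557-23738806 on the plus strand and Insig1 at chr5:28071162-28071411 on the plus strand.
Top2a: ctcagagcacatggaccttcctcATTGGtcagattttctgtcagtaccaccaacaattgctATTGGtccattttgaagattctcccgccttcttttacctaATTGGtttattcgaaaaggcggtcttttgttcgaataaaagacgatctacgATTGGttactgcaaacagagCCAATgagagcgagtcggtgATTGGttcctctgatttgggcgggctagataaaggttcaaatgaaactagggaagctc
Hist1h1c: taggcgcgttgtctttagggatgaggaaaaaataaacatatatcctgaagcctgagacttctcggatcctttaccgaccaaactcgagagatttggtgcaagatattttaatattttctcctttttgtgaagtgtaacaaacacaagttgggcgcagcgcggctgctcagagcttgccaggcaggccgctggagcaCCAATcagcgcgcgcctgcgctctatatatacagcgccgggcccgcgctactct
Insig1: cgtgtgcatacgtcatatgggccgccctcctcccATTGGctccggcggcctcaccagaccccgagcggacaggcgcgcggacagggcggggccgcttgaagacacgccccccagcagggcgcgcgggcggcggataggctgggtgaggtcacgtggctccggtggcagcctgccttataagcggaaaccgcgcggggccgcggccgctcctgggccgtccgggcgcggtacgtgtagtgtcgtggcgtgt
The Top2a window held 6 such boxes, and those of Hist1h1c and Insig1 held 1 each.

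Windows with at least 1 CCAAT on either strand made up 77.4% (24 of 31) in the cell cycle list, 94.4% (17 of 18) in the histone list and 81.2% (13 of 16) in the cholesterol list. The share was 33.8% over all 32851 windows and 35.7% over those of measured genes. The fatty acid and triglyceride list held it in 40.9% of windows (9 of 22) and the matrix list in 26.9% (7 of 26). The shares do not cover whole lists. Windows were at hand for 30 of 35 measured cell cycle genes, 17 of 18 histone genes and 13 of 20 cholesterol genes. Some genes had several windows. Of the windows counted, 4 of the histone list and 2 of the cholesterol list overlap another window of the list. The match describes letters in a window, and no binding was measured here.

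Mitochondrial genes were lower by small amounts that ran through whole complexes. All 34 measured genes of the TCA cycle and respiratory chain lay below 0, with a median of -0.75, yet only 3 passed 2-fold. Those were Suclg1 of the TCA cycle (65.1 RPKM in LSL-K4M, 28.1 in Mll3/4SET) and Uqcrc1 (180 and 84.6) and Cyc1 (200 and 95.7) of complex III. Of 40 genes named as complex I subunits or assembly factors, 36 lay below 0, with 2 called lower and 1 higher and a median of -0.57. Among all measured genes 3.23% were called lower and 1.79% higher. Mitochondrial ribosomal proteins had a median of -0.27 over 75 measured genes, and none was called.

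Fatty acid oxidation had a median of -0.55 over 23 measured genes, with 3 lower and 1 higher. The lower genes were Acaa2 (103 and 35.3 RPKM), Eci1 (70.9 and 30.3) and Hadh (96.4 and 45.2), all enzymes of the mitochondrial β-oxidation cycle. The higher one was the thioesterase Acot2, with 18.6 and 46.1 RPKM. The rate-limiting carnitine transferases Cpt1a (13.2 and 10.4 RPKM) and Cpt1b (12.7 and 10.6) were close.

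Of 19 measured thermogenic genes 4 were lower and none higher, with a median of -0.46. They were Cidea, Irf4 (2.66 and 0.528 RPKM), the potassium channel Kcnk3 (34.6 and 14.3) and the coactivator Ppargc1b (12.6 and 5.66). Ppargc1a (6.33 and 5.02 RPKM), the β3-adrenergic receptor Adrb3 (29.9 and 35.1) and Cox7a1 (50.9 and 68.0) were not called. The brown precursor markers Zic1 and Lhx8 were slightly above 0, at 0.55 and 0.52.

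**Figure D2:**
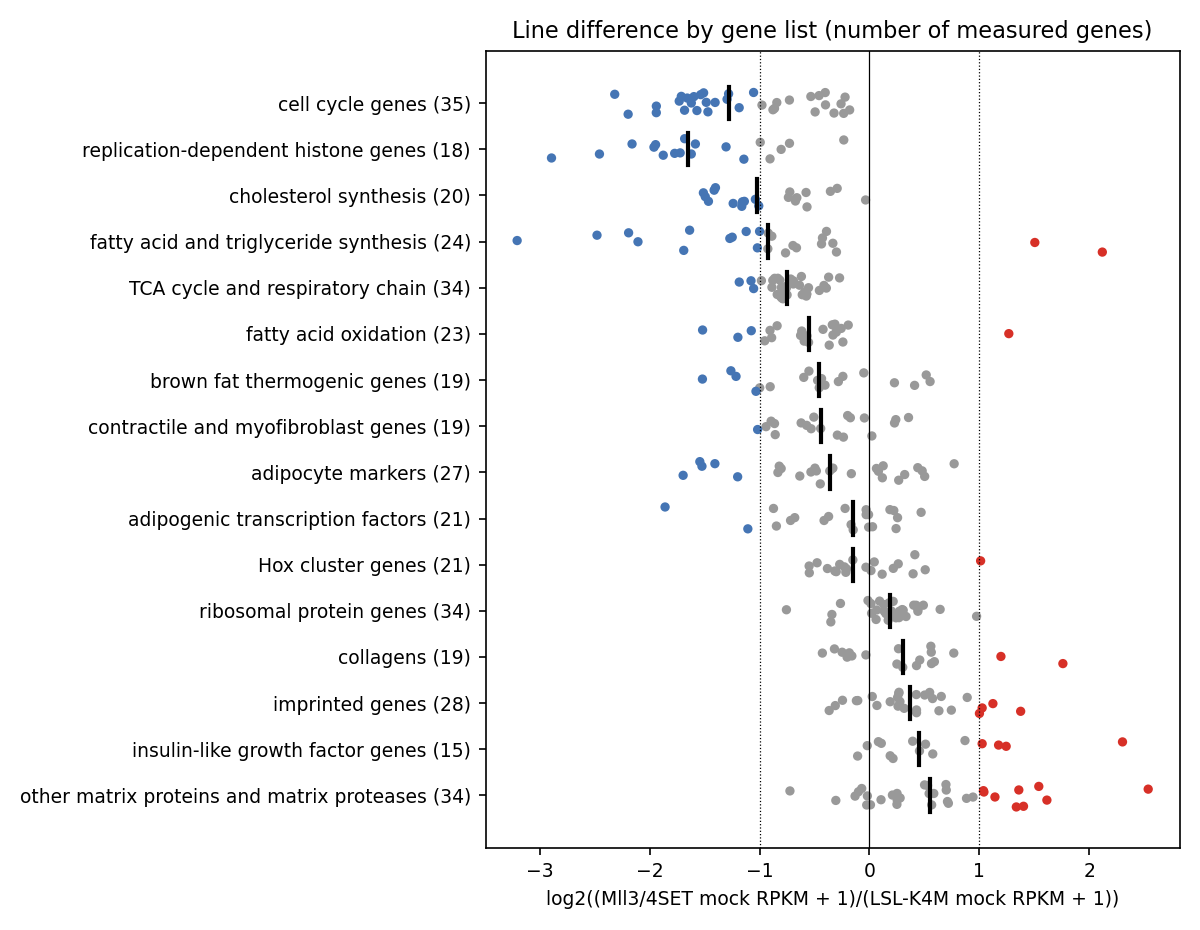
Line difference, log2((Mll3/4SET mock RPKM + 1)/(LSL-K4M mock RPKM + 1)), of each measured gene (points) in 16 gene lists, with the list median as a black bar and dotted lines at 2-fold. Cell cycle, histone and lipid lists lie to the left with medians from -1.65 to -0.92, adipogenic transcription factors and Hox genes sit near 0, and matrix, imprinted and insulin-like growth factor genes lie to the right with medians from 0.37 to 0.55.

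Matrix genes were among those higher in Mll3/4SET. Of 34 measured matrix proteins and proteases other than collagens, 9 were 2-fold higher and none lower, with a median of 0.55. Lum, a small leucine-rich proteoglycan of collagen fibrils, had 3.75 RPKM in LSL-K4M and 26.6 RPKM in Mll3/4SET, 7.09-fold higher (6.03 to 8.38). Its relatives Ogn (13.2 and 42.6 RPKM), Aspn (12 and 36.9) and Dcn (134 and 297) were higher too, as were the large proteoglycan Vcan (33.8 and 88.3), Spp1 (15.9 and 41.7), Mmp11 (6.81 and 19.6), Adamts1 (34.4 and 71.9) and the fibrillin Fbn2 (6.27 and 13.9). Sparc (1009 and 991 RPKM), Lox (272 and 274) and Thbs1 (304 and 290) were nearly equal.

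Of 19 measured collagens 2 were higher and none lower. Col3a1, a fibrillar collagen of soft tissue, had 482 RPKM in LSL-K4M and 1636 RPKM in Mll3/4SET, 3.39-fold higher (3.36 to 3.43). Col14a1 had 0.582 and 2.63 RPKM. The partner chains of collagen I, Col1a1 (1047 and 1245 RPKM) and Col1a2 (668 and 802), were inside 2-fold.

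Precursor markers were split. Of 22 measured, 2 were higher and 1 lower, with a median of 0.20. Cd34, a surface marker of adipose precursors, had 2.86 RPKM in LSL-K4M and 17.4 RPKM in Mll3/4SET, 6.10-fold higher (5.14 to 7.29), and Clec3b had 7.10 and 18.6 RPKM. Mgp, an inhibitor of calcification, was lower with 95 and 43.7 RPKM. Pdgfra (66.6 and 109 RPKM), Ly6a (251 and 235) and Pdgfrb (40.8 and 36.8), which mark the same cells, stayed inside 2-fold. Contractile genes had a median of -0.44 over 19 measured, with 1 called lower, the matricellular factor Ctgf (Ccn2) at 33.0 and 15.8 RPKM. A single call there is near the 5.01% called among all measured genes. Smooth muscle actin Acta2 had 211 and 115 RPKM, and what the sum of smooth muscle and pericyte markers given above contributes was not tested.

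The growth factor genes that were called were all higher in Mll3/4SET. Of 15 measured insulin-like growth factor genes 4 were higher and none lower, with a median of 0.46. Of these, 3 were binding proteins, which hold the factors outside the cell: Igfbp5 (3.96 RPKM in LSL-K4M and 23.5 in Mll3/4SET), Igfbp4 (88.7 and 212) and Igfbp6 (8.16 and 19.7). The other was the ligand Igf2, with 23.4 and 48.6 RPKM. Of 29 other growth factor ligands and receptors 6 were higher and none lower. They were Ptn (15.8 and 51.5 RPKM), the lipase inhibitor Angptl4 (41.4 and 105), Pdgfd (1.78 and 5.46), Fgf10 (4.45 and 10.4), Angpt2 (1.57 and 4.30) and the neurotrophin receptor Ngfr (0.613 and 2.23).

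Imprinted genes, expressed from 1 parental copy, included 4 higher and none lower among 28 measured, with a median of 0.37. Meg3 had 29.9 RPKM in LSL-K4M and 79.3 RPKM in Mll3/4SET, and Mirg, from the same imprinted cluster, had 0.571 and 2.14 RPKM. Igf2 and its neighbour H19 (172 and 377 RPKM) were the others. Their partner Dlk1 of the Meg3 cluster was at 10.3 and 7.79 RPKM, on the other side of 0.

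The largest single differences above 10 RPKM included proteins of varied function. Ero1l (Ero1a), an oxidase that helps form disulfide bonds in the endoplasmic reticulum, had 76.3 RPKM in LSL-K4M and 454 RPKM in Mll3/4SET, 5.95-fold higher (5.8 to 6.1). The guidance factor Sema3c had 5.47 and 37.4 RPKM, the haem-binding protein Hpx 13.6 and 87.6 RPKM, the adhesion molecule Alcam 13.3 and 57.6 RPKM, and the atypical chemokine receptor Cxcr7 (Ackr3) 3.86 and 18.7 RPKM. The metalloprotease Adamts15 (7.67 and 38.2 RPKM) and the granule proteoglycan Srgn (1.93 and 12.2) were among them as well.

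At the other end, the 20 most lowered genes above 10 RPKM were mostly of the groups described. Beside them stood Car2, a carbonic anhydrase (20.9 RPKM in LSL-K4M and 4.19 in Mll3/4SET), Adck3 (Coq8a), a kinase-like protein of coenzyme Q synthesis (19.4 and 3.3), Nat8l, which makes N-acetylaspartate (17.5 and 3.16), Ppp1r1a, a phosphatase inhibitor (27.9 and 5.31), Cyp2f2 (16.2 and 2.62) and Tmem179 (13.9 and 1.86).

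Genes of stress signalling and of ribosome assembly tended to the higher side with few calls. Of 27 measured genes of the endoplasmic reticulum and amino acid response 2 were higher, the cystine transporter subunit Slc7a11 (6.99 RPKM in LSL-K4M against 19.7 in Mll3/4SET) and the leucine transporter subunit Slc7a5 (37.8 and 80.5), with a median of 0.33. The factor Atf4 itself had 168 and 161 RPKM. Of 24 immediate early and heat shock genes 3 were higher, Fos (1.13 and 4.23 RPKM), Egr1 (14.4 and 34.7) and Fosl1 (5.14 and 12). In a list of ribosome assembly and nucleolar proteins drawn up after values were seen, 45 of 47 lay above 0 and 8 were called higher, with a median of 0.63. Among those 8 were Fbl (2.48 and 7.98 RPKM) and Nop58 (24.5 and 61.1), both of the particles that modify ribosomal RNA. Among 12 snoRNA host genes, also listed after values were seen, 4 were higher: Snhg12 (9.64 and 29.2 RPKM), Gas5 (9.71 and 26.3), Snhg1 (22.9 and 54.6) and Snhg6 (15.6 and 32.6). Ribosomal protein genes had a median of 0.19 over 34 measured, with none called.

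Of 21 measured Hox genes, which keep the memory of position along the body, 1 was called, Hoxc8, with 2.78 RPKM in LSL-K4M and 6.62 RPKM in Mll3/4SET. That count is near the 5.01% called among all measured genes. None of 24 measured positional and lineage transcription factors, 26 histocompatibility genes or 35 interferon-induced genes was called. The interferon list, with 26 genes below 0, does not hold every gene of that kind. Outside it, Ifi202b (0.103 and 53.6 RPKM), Gbp1 (1.12 and 17.4) and Gbp11 (5.78 and 25.3) were called higher in Mll3/4SET. Of 27 measured cytokines and chemokines 4 were higher and none lower, namely the alarmin Il33 (9.07 and 24.3 RPKM), Ccl11 (7.04 and 21.3), Cxcl5 (83.9 and 181) and Cxcl11 (0.614 and 3.23).

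The 4OHT libraries of the same lines give another line difference that shares no library with the first. There H3.3K4M expression was induced in one line and the Mll3 and Mll4 alleles were deleted in the other, so line and induced change cannot be told apart in that pair. By title the 4OHT libraries are of day 0, but by stage label and table header they are of day 7, which was used. Of 11686 genes measured there, 661 (5.66%) differed by 2-fold, 196 (1.68%) higher and 465 (3.98%) lower in Mll3/4SET. Over 11206 genes measured in both pairs, Pearson's r of the differences was 0.583 and Spearman's rho was 0.630. Points of that comparison share the lines, the tables and the transcript lengths.

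Of the 376 genes lower in Mll3/4SET mock, 328 were measured in the 4OHT pair, and 141 of them (43.0%) were 2-fold lower there too, 30.3% of the 4OHT calls in that direction. The sign was the same for 325 (99.1%), and none was 2-fold higher. Of the 208 genes higher in mock, 178 were measured, and 51 of them (28.7%) were 2-fold higher, 26.0% of the 4OHT calls in that direction. The sign was the same for 140 (78.7%), and 9 were 2-fold lower. Over all genes measured in the 4OHT pair, 3.98% were 2-fold lower and 1.68% 2-fold higher, with a median of -0.02. The share of all genes on each side of 0 was not counted.

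By group, the cell cycle list had a median of -1.28 in mock and -0.54 in 4OHT, with 6 genes lower in both pairs. The histone list had -1.65 and -1.17 with 11 lower in both, and cholesterol synthesis -1.02 and -1.17 with 10 lower in both. Fatty acid and triglyceride synthesis had -0.92 and -1.91 with 9 lower in both. The matrix list had 0.55 and 0.01, with 3 members higher in both, Mmp11 (15.4 and 40.4 RPKM in 4OHT), Lum (10.0 and 28.4) and Spp1 (17.6 and 36.8). Some list medians changed side. The collagen list had 0.30 in mock and -0.44 in 4OHT, where 2 of 21 measured genes were higher and 7 lower. Precursor markers had 0.20 and -0.77, with 1 of 21 higher and 7 lower in 4OHT. Cytokines and chemokines had 0.29 and -0.57, with 1 of 26 higher and 6 lower in 4OHT. Of the collagens, Col3a1 had 731 RPKM in LSL-K4M 4OHT and 2294 RPKM in Mll3/4SET 4OHT, close to its mock ratio. The amino acid response list had 0.33 in mock and 1.03 in 4OHT, where 13 of 26 measured genes were higher.

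**Figure D3:**
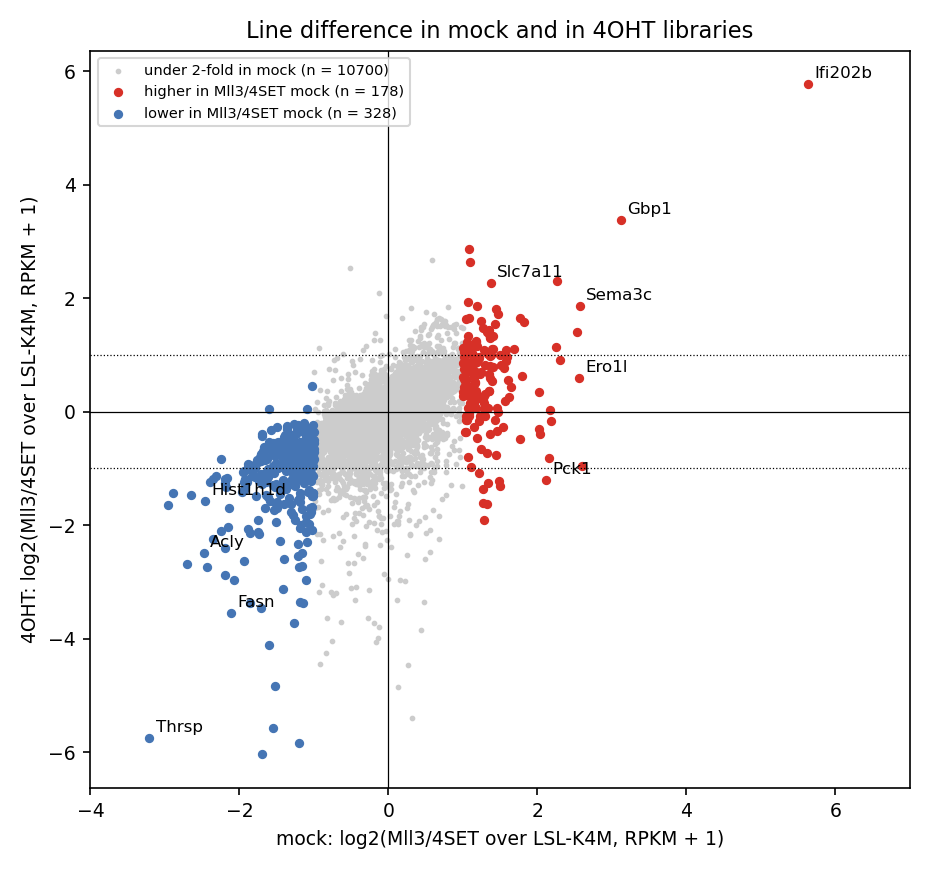
Line difference of each gene in the mock pair (x) and in the 4OHT pair (y), both as log2 of Mll3/4SET over LSL-K4M RPKM + 1, with genes called in mock coloured and dotted lines at 2-fold in 4OHT. Of the 328 lower genes nearly all lie below 0 on the y axis, while the 178 higher genes spread over both sides.

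Some genes separated the lines in all 4 libraries, and were picked after values were seen. Ifi202b, an interferon-inducible gene known to differ between inbred mouse strains, had 4 reads (0.103 RPKM) in LSL-K4M mock and 2140 reads (53.6 RPKM) in Mll3/4SET mock, a 519-fold ratio (202 to 1905). In 4OHT it had 0 reads in LSL-K4M and 53.5 RPKM in Mll3/4SET, at least 736-fold higher against 3 reads. Gbp1 (Gbp2b), a guanylate-binding protein, had 1.12 and 17.4 RPKM in mock and 0.724 and 16.9 RPKM in 4OHT. In each line the mock and 4OHT levels of both genes were close.

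Asking that both libraries of a line hold 50 reads or more and at least 4-fold the reads of either library of the other line, after adding 1 read, gave 6 genes for Mll3/4SET and 4 for LSL-K4M. Beside Ifi202b and Gbp1 the former were Col14a1, Lama1, Tlr1 and Pcsk6, a proprotein convertase with 1.06 and 6.27 RPKM in mock and 1.12 and 5.32 RPKM in 4OHT. The latter were Tox3 (1.92 and 0.0281 RPKM in mock, 132 and 2 reads, 68.1-fold lower with an interval of 18.5 to 568), AI506816, Adcy10 and Hist1h3h. The rule set no minimum RPKM. Lama1 was too low to be measured by the 1 RPKM rule, with 0.0584 and 0.297 RPKM in mock and 0.0548 and 0.538 RPKM in 4OHT. Genes with smaller differences of near the same size in both pairs included Wdfy1 (4.24 and 13.6 RPKM in mock, 5.17 and 19.3 in 4OHT) and Entpd4 (23.7 and 9.45 RPKM in mock, 23.3 and 9.38 in 4OHT). The labels give no strain, so no origin of these differences is assigned.

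**Figure D4:**
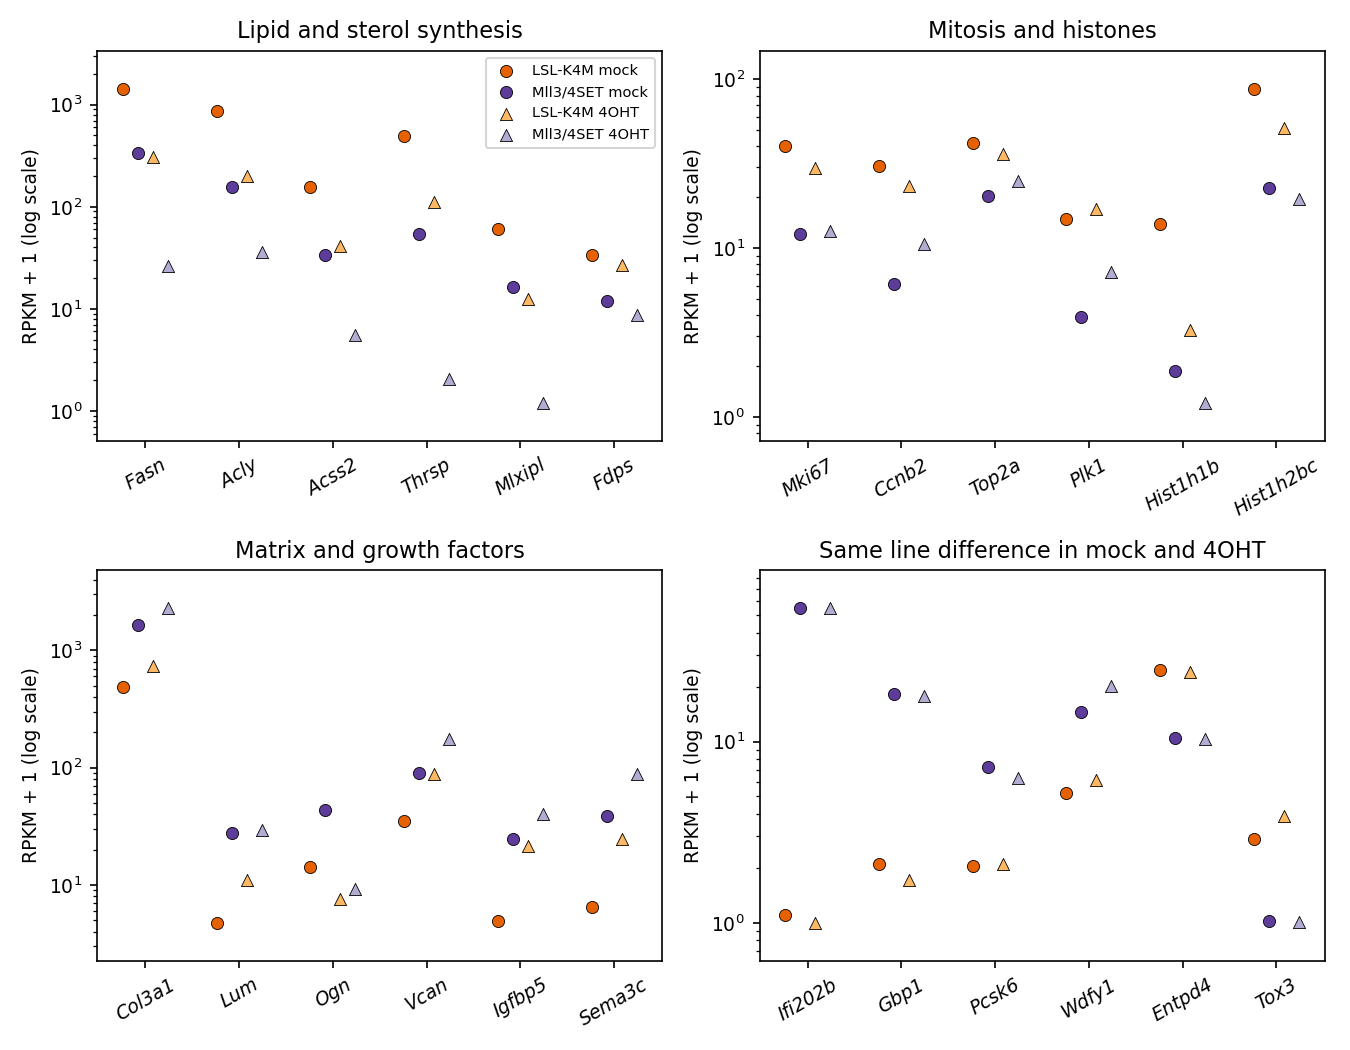
RPKM + 1 (log scale) of 24 genes in each of the 4 RNA libraries, circles for mock and triangles for 4OHT, orange for LSL-K4M and purple for Mll3/4SET. Lipid genes fall in the order LSL-K4M mock highest and Mll3/4SET 4OHT lowest, while Ifi202b, Gbp1, Pcsk6, Wdfy1, Entpd4 and Tox3 differ by line and little by treatment.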

How the data were processed

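The series holds RNA-seq of both lines and ChIP-seq of 1 line, in 10 groups of 1 library. The ChIP-seq and input samples were not used here. RNA was extracted with Trizol and its mRNA purified on magnetic beads, per the labels' protocols. The submitters' processing notes name the build mm9 and the tool SICER. The aligner, the counter and whether counting used strand are not given in the sources used here, so overlapping and antisense genes cannot be told apart.

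Per the file headers, the deposited table of each line gives the read count and the RPKM of each RefSeq transcript in its mock and 4OHT libraries. The authors normalized each table separately, and 1 read was worth 0.969 times as many RPKM in Mll3/4SET mock as in LSL-K4M mock. The authors' deposited ratio of mock to 4OHT and a deposited column of another kind, the number of libraries called expressed, were not used. No column of another series was found (0).

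The tables were joined on transcript and name. Of 29082 transcripts under 22835 names, the row with the highest mean RPKM over the mock libraries of both lines was kept per name. The 4OHT libraries played no part in that choice, and 3906 names had several rows. Chromosomes came from RefSeq (GRCm38.p6) for 99.7% of names, and 1026 X- or Y-linked names were left out. Coordinates are printed for the promoter windows only. A gene was measured if the higher library reached 1 RPKM, and the log2 scale had a pseudocount of 1 that shrinks the difference of low genes. Samples were grouped by line, assay and treatment from their labels. The size rule was tested on simulated data that held counting error alone. Variation between cultures or library preparations was not simulated, so the rule was not checked against it. Members of the comparison, the 40 gene lists and the marker lists were chosen with earlier results of these data known. After values were seen, 4 further lists and the name families were added. The families were histone clusters, complex I, mitochondrial ribosomal proteins, kinesins, centromere proteins and insulin-like growth factor binding proteins.

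Genes named by rule are Pparg, Cebpa, Fabp4, Adipoq, Plin1, Ucp1, Cidea, Ppargc1a, Prdm16, Mll3, Mll2, H3f3a and H3f3b, the 20 highest and 20 lowest at 10 RPKM or more without predicted and small RNA genes, up to 6 members of each list, and the 10 genes per direction with the largest difference in both pairs. Not all of them are printed. Other genes were chosen after their values were seen, mostly further members of the lists. Alternatives were pseudocounts of 0.1 and 0.001, no minimum or 5 RPKM, median-ratio and upper-quartile scaling, other handling of names with several rows, a size of 3-fold and all chromosomes kept. Python 3.11.15 with numpy 2.4.6, pandas 2.3.3, scipy 1.17.1 and matplotlib 3.10.9 was used.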

Additional observations from a re-analysis of the deposited data

Results flagged for a closer look

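In 9 genes the line difference was 2-fold or more in opposite directions in mock and in 4OHT. The small RNA genes among them, Snord11 and Mir5100, had low RPKM throughout and are not described further. Each of the other 7 was higher in Mll3/4SET than in LSL-K4M among mock libraries and lower among 4OHT libraries. The contrast between the pairs was not tested, since each group is 1 library.

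Pck1, the enzyme that feeds glycerol synthesis, had a log2 difference of 2.12 in mock and -1.20 in 4OHT. Agpat9, an acyltransferase of triglyceride synthesis, had 1.51 and -1.30. Tusc5, a protein of insulin-stimulated glucose uptake in fat, had 1.32 and -1.62, with 26.2 RPKM in Mll3/4SET mock and 0.157 RPKM in Mll3/4SET 4OHT. Egln3, a hypoxia-induced prolyl hydroxylase, had 1.34 and -1.26, and the secreted glycoprotein Stc1 had 1.21 and -1.07. Clec3b had 1.28 and -1.35, and Fam110c had 1.49 and -1.21. In all 7 the Mll3/4SET 4OHT library was the lowest of the 4.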

How the results depend on the processing

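No paired analysis was possible because each group is 1 library and the labels tie no library of one line to a library of the other. With 1 library a side, leaving out a replicate was not possible either. A lower pseudocount raised the counts of low genes. With 0.1, 348 genes were higher and 605 lower in Mll3/4SET mock, and 327 of the mock calls had the same 2-fold direction in 4OHT, against 208, 376 and 192 with 1. With 0.001 these were 380, 640 and 345. At a size of 3-fold they were 31, 95 and 29. Every other alternative gave counts within 1.5 times. A list median counted as stayed if it shifted by less than 1.5-fold, and by that rule 316 stayed and 3 moved. A named gene also counted as stayed if its new value lay inside its counting interval. By that rule 1573 gene differences stayed and 4 moved. No called value changed sign. The interval surrounds the plain ratio, which lower pseudocounts approach, so it cannot show stability to the pseudocount. Ifi202b counted as stayed while its difference went from 5.63 to 8.04 with a pseudocount of 0.1. The median of all genes was 0.01 under median-ratio and 0.00 under upper-quartile scaling, and between 62.4% and 75.4% of the calls were lower under the alternatives. Intervals cover counting error, not variation between cultures, which these data cannot give. Across genes, Spearman's rho of the difference with transcript length was 0.158, with medians from -0.08 in the shortest of 5 length bins to 0.10 in the longest. The bins held near equal numbers of genes, but calls in both directions were more frequent among short transcripts. Of the higher calls 38.9% lay in the shortest bin and 17.3% in the longest. Of the lower calls these were 31.6% and 9.04%. Small RNA genes were kept in these counts.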

Other observations

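Among genes at 1 RPKM or more in all 4 libraries, the median line difference in mock by chromosome ran from -0.10 on chromosome 17 to 0.15 on chromosome 13, and the same chromosomes had -0.09 and 0.10 in 4OHT. Cytosolic aminoacyl-tRNA synthetases, which charge tRNAs for translation and were listed after values were seen, had 1 of 21 higher in mock, with a median of 0.33. That gene was Eprs, with 72.8 RPKM in LSL-K4M and 148 RPKM in Mll3/4SET, a count near the 5.01% called among all genes. In the 4OHT pair 4 were higher and the median was 0.65. Centromere proteins had 6 of 17 measured genes lower in mock and none higher, with a median of -0.65. This family was formed after values were seen and shares Cenpa with the cell cycle list.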
